A study of Mus musculus with 9 samples.

Results

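Homozygous Kcnd3 F227del knock-in (KI/KI) mice were compared with wild-type (WT) mice by RNA sequencing of cerebellar tissue rich in Purkinje cells, in 3 libraries against 3, which were chosen by their genotype labels from the 9 libraries of the series. All mice were females at 1.5 months of age. KI/KI mice carried the F227del allele on both copies of Kcnd3, WT mice carried none, and the 3 KI/+ libraries, from mice with a single mutant copy, entered the fit and are given beside the other values. The allele was made by homologous recombination in B6N embryonic stem cells and bred onto C57BL/6J, so it was present in every cell from conception and was not limited to Purkinje cells. Purkinje cells and the tissue next to them were cut from frozen sections with a laser, so each library is a mixture of cells. In such bulk samples fewer cells of a type and less RNA per cell cannot be told apart.

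Kcnd3 encodes Kv4.3, a pore-forming subunit of the A-type potassium channels, which open briefly after a depolarization and delay the next action potential. Purkinje cells are the only output neurons of the cerebellar cortex, and they fire spontaneously and inhibit the neurons of the deep nuclei. KCND3 mutations in humans cause spinocerebellar ataxia, a progressive loss of coordination. The comparison asks which genes differ in Purkinje cell-rich tissue when both copies of the channel gene carry the deletion.

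The F227del allele removes a phenylalanine from the channel protein. The reference coding sequence around this codon in exon 2 of Kcnd3 is shown to place the mutation, with the phenylalanine codon in capitals; it lies on the plus strand of GRCm38 at chr3:105459479-105459511, taken from GENCODE vM21. The codon just before it also encodes phenylalanine, and which 3 bases the allele lacks was not read here.
Kcnd3, codon deleted in F227del: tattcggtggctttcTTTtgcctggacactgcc

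The targeted gene gave few reads. Kcnd3 had 21, 5 and 10 counts in the WT libraries, 12, 13 and 6 in the KI/+ libraries and 19, 10 and 8 in the KI/KI libraries. The groups overlapped, with 3.48 ± 1.23 CPM (library-size-scaled counts, SD, n = 3) in KI/KI mice against 4.75 ± 2.92 in WT mice. The log2 fold change was -0.45 (SE 0.43, edgeR FDR = 0.788). The direction turned to 0.15 without WT replicate 1. A deletion of a codon leaves the transcript countable, so the counts check no genotype. They also could not be read as the level of Kcnd3, because the name failed both of the checks described next.

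Whether the counts of a row belong to the gene it is named for was checked before any function was read. Of 1616 genes of families that nearly every cell uses, such as ribosomal, proteasome and respiratory chain genes, 676 (41.8%) had a mean of at least 10 counts, and 241 had no count in any library. The first check asked whether at least 8 of the 10 nearest such genes were counted, together with the nearest on each side. The second, added after the data were seen, asked whether protein-coding genes were ahead of other genes in counts per kb of exon in at least 80% of pairs among the 100 nearest genes. For Kcnd3, 3 of 10 neighbours were counted and coding genes were ahead in 53.5% of pairs. The median of the second measure over all genes listed was 65.1%.

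Both checks were passed by 1346 of the 56953 genes listed, of which 522 lie on chromosome 4, 315 on chromosome 6, 201 on chromosome 2, 178 on chromosome 15 and 128 on chromosome 18. Of the 10842 genes tested, 380 passed both checks, and the text below rests on these genes. For the remaining rows the name was not taken as shown, and no result rests on their function; Calb1, which missed the first check by 1 condition, is given beside the others with that stated.

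**Figure D1:**
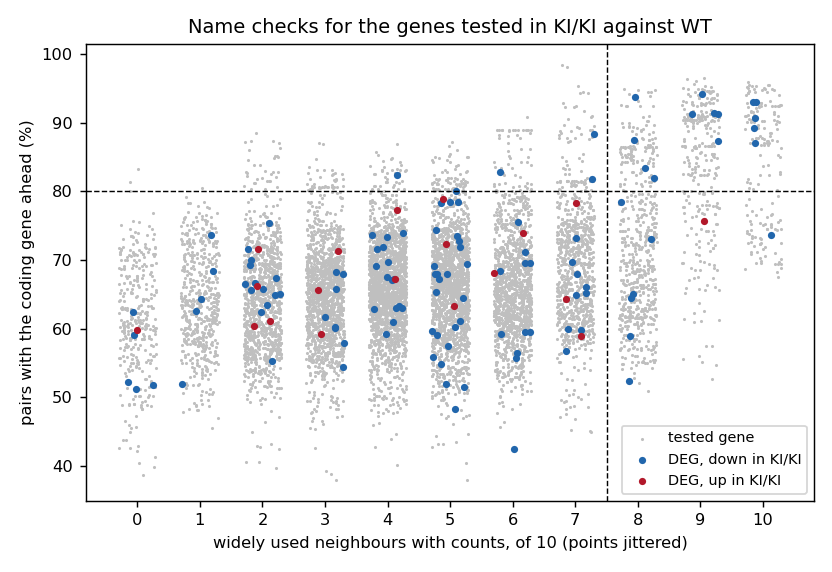
Each point is a gene tested in KI/KI against WT. The horizontal axis gives how many of its 10 nearest widely used genes had counts and the vertical axis the percentage of pairs in which a protein-coding gene was ahead of another gene; dashed lines mark the limits of 8 neighbours and 80%. Blue points are DEGs lower in KI/KI (125 in all) and red points those that were higher (19 in all). Rows without a value for either axis, among them the DEG ENSMUSG00000121029, are not drawn. Most lie outside the upper right corner, where 14 down-regulated DEGs passed both checks.

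Differentially expressed genes (DEGs) were those that differed by more than 1.3-fold at an FDR (false discovery rate) below 0.2. By this definition 125 of the 10842 genes were down-regulated in KI/KI mice (1.15%) and 19 were up-regulated (0.175%). Of the down-regulated DEGs, 109 failed the neighbour check and 2 failed the second check alone. Rows absent from GENCODE vM21 could not be checked and are counted as failing throughout. Of the up-regulated DEGs, 18 failed the neighbour check and 1 the second. The 14 that remained were all lower in KI/KI mice, 3.68% of the 380 genes, and no gene of this set was up-regulated by edgeR. DESeq2 called 5 lower and 0 higher genes of the set on all 9 libraries and returned no adjusted p for the others of the 14. With limma-voom the numbers were 22 and 2. Over all tested genes 617 had an unadjusted p under 0.05 and were lower (5.69%) and 468 were higher (4.32%); in the set these numbers were 56 and 18. KI/KI and WT libraries were free of overlap in 877 genes that were lower (8.09%) and 847 that were higher (7.81%), and in 52 and 31 genes of the set. The median log2 fold change was -0.02 in the set and 0.01 over all tested genes.

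The 14 genes were Basp1, Pdzd2, Tac1, Ankrd6, Tox, Tmem215, Pdk4, Gm44250, Shb, Grhpr, Mest, Lingo2, Slc25a13 and Palm2. The first 6 are among the 20 genes the study singled out from these libraries, so their direction is no independent evidence, and they are described first and briefly. The remaining 14 of those 20 genes failed a check here. When the 380 genes were split into 4 groups of 95 by mean CPM, a scale that also grows with transcript length, the down-regulated DEGs numbered 4, 8, 2 and 0 from the lowest group to the highest. The 3 genes of the highest group that passed the FDR limit differed by less than 1.3-fold.

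**Figure D2:**
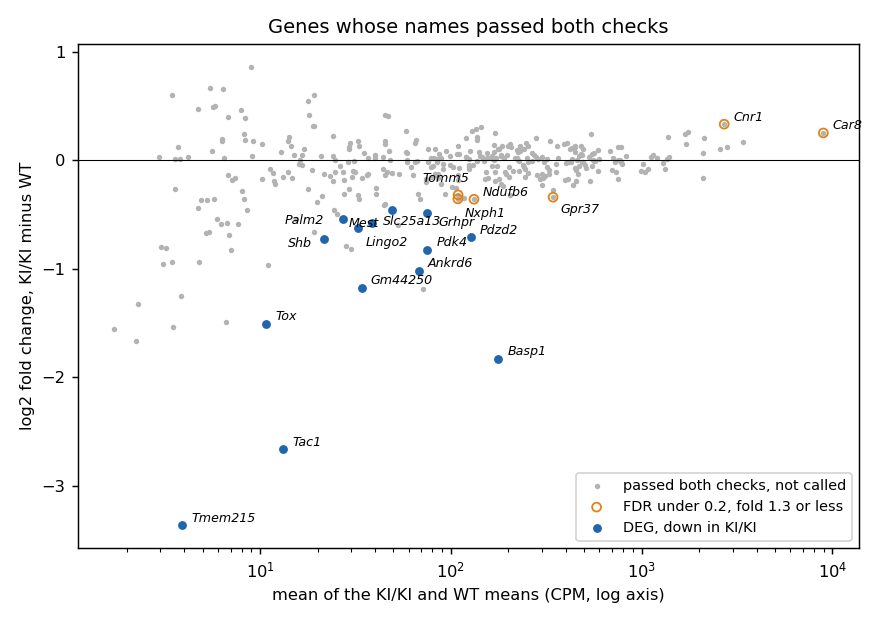
Log2 fold change of KI/KI against WT on the vertical axis and the mean CPM of both genotypes on a log horizontal axis, for the 380 genes whose names passed both checks. Blue points are the 14 down-regulated DEGs, with Tmem215, Tac1 and Basp1 lowest. Open orange circles are genes below an FDR of 0.2 that differed by 1.3-fold or less, with Cnr1 and Car8 above 0.

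Among the 14 genes, the largest differences were in 4 that also moved together in a KI/+ library. Basp1, a membrane-bound protein of growth cones and presynaptic terminals, measured 246, 278 and 308 CPM in the WT libraries and 87.7, 77.5 and 66.9 in the KI/KI libraries. It was 3.56-fold lower in KI/KI mice (log2 fold change -1.83, SE 0.28, edgeR FDR = 0.00657). Its KI/+ libraries stood at 283, 247 and 74.8 CPM, so replicates 1 and 2 lay with WT and replicate 3 lay inside the KI/KI range.

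Tac1, the precursor of the neuropeptides substance P and neurokinin A, had 24.7, 23.3 and 21.2 CPM in WT and 5.64, 2.804 and 1.89 in KI/KI. The groups were far apart, with a 6.34-fold lower level in KI/KI mice (log2 fold change -2.66, SE 0.45, edgeR FDR = 0.0113). KI/+ libraries had 31.4, 17.0 and 4.74 CPM, again with replicate 3 inside the KI/KI range.

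Tox, a DNA-binding protein of the HMG-box family, had 13.1, 17.5 and 17.7 CPM in WT and 5.13, 7.14 and 4.16 in KI/KI (log2 fold change -1.51, SE 0.31, edgeR FDR = 0.0511). In KI/+ it had 17.3, 19.96 and 7.37 CPM, with replicate 3 just above the KI/KI range. Tmem215, a transmembrane protein, had 26, 16 and 12 counts in WT and 5, 2 and 0 in KI/KI, against 33, 27 and 2 in KI/+. Libraries with at most 3 counts were treated as not above 0, a limit that covers counting error alone. KI/KI replicates 2 and 3 and KI/+ replicate 3 fell under it. The fitted log2 fold change of Tmem215 was -3.37 (SE 0.71, edgeR FDR = 0.0563), and its size depends on how zeros are treated.

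Ankrd6, an ankyrin-repeat protein of Wnt signalling, and Pdzd2, a protein with several PDZ domains, had a different order. Ankrd6 stood at 88.4, 92.7 and 93.7 CPM in WT, 81.1, 71.4 and 77.4 in KI/+ and 40.5, 63.5 and 28.4 in KI/KI (log2 fold change -1.02, SE 0.18, edgeR FDR = 0.0149). Pdzd2 stood at 138, 178 and 159 CPM in WT, 119, 129 and 116 in KI/+ and 90.5, 113 and 84.7 in KI/KI (log2 fold change -0.71, SE 0.11, edgeR FDR = 0.00733). For both genes each KI/+ library lay between the WT and the KI/KI libraries.

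Beyond the study's genes, 8 of 374 genes that passed both checks were DEGs (2.14%, against 1.15% of all tested genes), all of them lower in KI/KI mice. Of these genes, Pdk4, Grhpr and Slc25a13 have known roles in metabolism. Some of the 8 also lie near one another. Gm44250, Pdk4 and Slc25a13 have lower coordinates of 5216258, 5483351 and 6041218 on chromosome 6. Grhpr and Shb have 44981395 and 45423278 on chromosome 4. Whether location bears on the calls was not tested. Pdk4, the pyruvate dehydrogenase kinase that restrains the entry of glucose carbon into the citric acid cycle, lies on chromosome 6 (GRCm38 chr6:5483351-5496309, minus strand). It had 83.9, 106 and 99.3 CPM in WT and 68.2, 43.3 and 50.7 in KI/KI. The groups did not overlap, which the rule that named Pdk4 required. Pdk4 was 1.77-fold lower in KI/KI mice (log2 fold change -0.83, SE 0.17, edgeR FDR = 0.0563). KI/+ libraries had 85.3, 49.5 and 59.0 CPM.

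Grhpr, an enzyme that reduces glyoxylate and hydroxypyruvate, had 74.9, 101 and 88.1 CPM in WT against 63.6, 67.0 and 56.3 in KI/KI (log2 fold change -0.49, SE 0.12, edgeR FDR = 0.107). Slc25a13, the mitochondrial aspartate and glutamate carrier citrin, had 39.7, 48.6 and 50.1 CPM in WT against 35.9, 25.0 and 31.4 in KI/KI (log2 fold change -0.58, SE 0.16, edgeR FDR = 0.157). Its KI/+ libraries, at 36.9, 26.2 and 27.9 CPM, spread over nearly the same range as the KI/KI libraries. For Grhpr the KI/+ libraries, at 70.1, 83.9 and 83.7 CPM, lay above every KI/KI library.

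Lingo2, a leucine-rich repeat protein of neuronal membranes, had 36.3, 43.2 and 39.7 CPM in WT and 30.3, 23.7 and 22.7 in KI/KI (log2 fold change -0.62, SE 0.17, edgeR FDR = 0.146). Shb, an adaptor with an SH2 domain that acts downstream of receptor tyrosine kinases, had 21.7, 33.7 and 25.9 CPM in WT and 17.7, 16.3 and 14.4 in KI/KI (log2 fold change -0.73, SE 0.18, edgeR FDR = 0.101). Mest, an imprinted gene expressed from the paternal copy, had 51.3, 54.0 and 65.2 CPM in WT and 43.3, 41.8 and 37.8 in KI/KI (log2 fold change -0.46, SE 0.12, edgeR FDR = 0.135). In each of these genes every KI/KI library was below every WT library, which the rule that named them required. In absolute CPM, a scale that depends on abundance, the gap was narrowest for Shb, at 17.7 against 21.7.

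Palm2, a paralemmin linked to the inner face of membranes, had the weakest call of the set. It measured 27.0, 37.0 and 32.0 CPM in WT and 22.3, 19.4 and 24.6 in KI/KI (log2 fold change -0.54, SE 0.16, edgeR FDR = 0.190). Gm44250, an unconfirmed transcript model near Pdk4 on chromosome 6, was named after its values were seen because its libraries overlapped. It had 28.8, 50.3 and 64.3 CPM in WT and 18.2, 30.8 and 11.7 in KI/KI (log2 fold change -1.18, SE 0.28, edgeR FDR = 0.0977). KI/KI replicate 2 exceeded WT replicate 1.

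**Figure D3:**
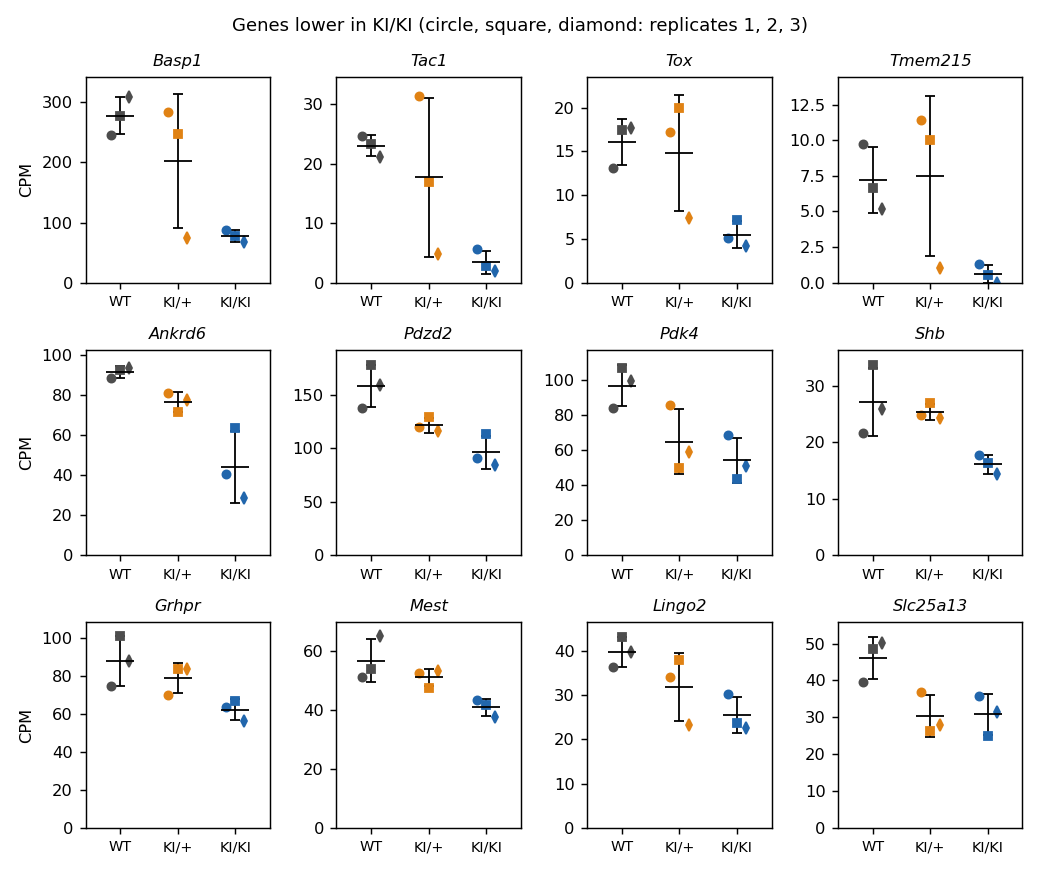
CPM in each library for 12 of the 14 down-regulated DEGs whose names passed both checks, in WT, KI/+ and KI/KI mice. Circles, squares and diamonds are replicates 1, 2 and 3, horizontal lines are means and bars are SDs (n = 3), and every axis starts at 0. KI/+ replicate 3 lies with the KI/KI libraries for Basp1, Tac1, Tox and Tmem215.

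The KI/+ mean fell between the WT and KI/KI means in 12 of the 14 genes, above the WT mean for Tmem215 and below the KI/KI mean for Slc25a13. Single libraries were less even. KI/+ replicate 1 was at or below the highest KI/KI library in 0 of the 14 genes, replicate 2 in 3 and replicate 3 in 7. Because the genes were chosen by the distance of KI/KI from WT, this is a description of where the KI/+ libraries lay and no test was made. WT replicate 1 was the lowest WT library in 12 of the 14 genes, and KI/KI replicate 1 was the highest KI/KI library in 8.

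The calls rested on few libraries. Without WT replicate 2 the set had 4 down-regulated DEGs in place of 14, without WT replicate 3 it had 6, without KI/KI replicate 3 it had 4, and without WT replicate 1 it had 25. Tac1, Pdzd2 and Ankrd6 kept an FDR under 0.2 in every alternative that returned a value, and Basp1 lost it with edgeR's robust option alone (FDR = 0.222). Tox lost it in 3 alternatives and Tmem215 in 2. Each of the 8 genes beyond the study's lost it in at least 4: Pdk4, Grhpr and Shb in 4, Lingo2, Mest and Slc25a13 in 5, Gm44250 in 6 and Palm2 in 9 of 19. Without WT replicate 2, without WT replicate 3, without KI/KI replicate 3 and in the L1 libraries alone, none of these 8 genes kept its call. DESeq2 returned an adjusted p for Pdk4 and Grhpr but not for the other 6 or for Tac1, Tox or Tmem215. For the genes without an adjusted p it was no test of the call. On all 9 libraries it returned a value for Basp1, Pdzd2, Ankrd6, Pdk4 and Grhpr, which were its 5 calls. Genes of the set under the FDR limit that differed by less than 1.3-fold also lost it in some alternatives. Of 21 alternatives, Tomm5 lost it in 9, Car8, Nxph1 and Gpr37 in 5 each, Ndufb6 in 3 and Cnr1 in 1.

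Considered were those of the 14 genes with a single RefSeq window and at least 150 bases upstream of both the RefSeq and GENCODE start. Shown for the 3 of smallest p among them, Basp1, Pdzd2 and Pdk4, are the sequences just before the start. They come from RefSeq (GRCm38.p6), are written from 5′ to 3′ on the strand of the gene and end where the gene begins. Capitals mark 4 motifs searched on both strands, the GC box GGGCGG, the CCAAT box CCAAT, the E-box CACGTG and the cAMP response element core TGACG.
Basp1, chr15:25413765-25414014, minus strand: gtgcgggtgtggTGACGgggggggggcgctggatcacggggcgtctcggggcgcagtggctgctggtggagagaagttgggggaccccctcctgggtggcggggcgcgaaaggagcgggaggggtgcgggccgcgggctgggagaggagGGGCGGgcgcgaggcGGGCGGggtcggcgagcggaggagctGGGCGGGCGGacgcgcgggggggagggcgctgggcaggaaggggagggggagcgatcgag
Pdzd2, chr15:12739925-12740142, minus strand: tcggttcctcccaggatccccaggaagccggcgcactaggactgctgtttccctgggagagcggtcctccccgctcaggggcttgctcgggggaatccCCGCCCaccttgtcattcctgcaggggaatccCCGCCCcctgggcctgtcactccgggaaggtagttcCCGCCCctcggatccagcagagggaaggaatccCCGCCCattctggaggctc
Pdk4, chr6:5496310-5496528, minus strand: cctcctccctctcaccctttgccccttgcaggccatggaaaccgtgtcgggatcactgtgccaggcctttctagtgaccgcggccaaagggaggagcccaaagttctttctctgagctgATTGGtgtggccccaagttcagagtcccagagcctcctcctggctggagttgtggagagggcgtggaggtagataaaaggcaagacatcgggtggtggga

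Basp1 held 4 GC boxes, a pair of them overlapping, and 1 cAMP response core. Pdzd2 held 4 GC boxes, and Pdk4 held 1 CCAAT box and no GC box. Of the 14 genes, 11 had a RefSeq window. A gene was counted if any of its windows held the motif, whereas the percentages are of single windows. A gene with several windows has more chances of a match, so the counts and percentages are unlike measures. Within 250 bases before a start, the GC box was present in 7 of these 11 genes and in 32.7% of all 32851 windows. The CCAAT box was present in 6 and in 33.8% of windows, the cAMP response core in 3 and in 17.8%, and the E-box in 2 and in 6.02%. A match of letters is a description of the sequence and not of a bound site.

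Some neuronal genes with many reads were slightly higher in KI/KI mice. Cnr1 encodes the CB1 cannabinoid receptor, which sits on axon terminals in the cerebellar cortex and curbs transmitter release. It had 2573, 2324 and 2287 CPM in WT, 2753, 2729 and 2659 in KI/+ and 3107, 2950 and 2995 in KI/KI. The 3 genotypes did not overlap, and Cnr1 had a log2 fold change of 0.33 (SE 0.06, edgeR FDR = 0.0186) in KI/KI against WT mice. The fold change stayed below 1.3, so Cnr1 was no DEG, and it was named after its values were seen.

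Car8, a carbonic anhydrase-like protein that binds the inositol trisphosphate receptor and is a marker of Purkinje cells, had 9206, 7640 and 7673 CPM in WT and 10301, 8877 and 10037 in KI/KI. The ranges overlapped, and the log2 fold change was 0.25 (SE 0.07, edgeR FDR = 0.174). The row named Calb1, the symbol of the Purkinje cell calcium buffer calbindin, had 5805, 5092 and 4917 CPM in WT and 6484, 5632 and 6462 in KI/KI (log2 fold change 0.23, SE 0.07, edgeR FDR = 0.197). Calb1 had 9 counted neighbours and coding genes ahead in 89.6% of pairs, but it failed the condition on the nearest gene at each side, so its name was not taken as shown, and it was named after its values were seen. Neither gene was a DEG, and KI/+ replicate 3 was the highest KI/+ library for both, at 9946 CPM for Car8 and 6522 for Calb1.

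The labelled tissue was checked on the level per kb of exon of the 2 Purkinje cell markers that passed, Car8 and Foxp2. Car8 had 2121 CPM per kb in WT mice and ranked first among the 380 genes, whose median was 21.8. Foxp2 had 4.68 CPM per kb, below that median, and ranked 304 of 380, so the markers did not all rank high. The row named Calb1, at 1088 CPM per kb, exceeded every gene of the set except Car8. Its name failed a check and it was picked after its values were seen, so it is no part of the tissue check. The remaining cell type lists held few names that passed both checks, and their other members could not be read. Of 24 Purkinje cell markers 2 passed, Car8 and Foxp2. The lists of granule cells, interneurons, Bergmann glia, deep nuclei, and vessels each had 1, while those of oligodendrocytes and microglia had 0.

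Cadps2, a priming factor for dense-core vesicles from the granule cell list, had 1836, 1455 and 1505 CPM in WT and 2016, 1698 and 2036 in KI/KI (log2 fold change 0.26, SE 0.09, edgeR FDR = 0.312). Nxph1, a secreted ligand of neurexins from the interneuron list, had 115, 120 and 132 CPM in WT and 99.8, 101 and 84.7 in KI/KI (log2 fold change -0.36, SE 0.10, edgeR FDR = 0.161). Slc1a3, the glutamate transporter of Bergmann glia, stood at 104 ± 13.3 CPM in WT and 114 ± 3.82 in KI/KI (edgeR FDR = 0.714). Col1a2, a collagen of vessel walls, stood at 248 ± 11.2 and 251 ± 13.8 (edgeR FDR = 0.973). Whether a shift in the mixture of cells accounts for any of the differences was not tested. Tac1 was the single member of the list of deep nuclei and brainstem neurons that could be read.

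Foxp2, a transcription factor of Purkinje cells, differed widely between libraries of the same genotype. It had 124, 55.3 and 50.5 CPM in WT, 124, 125 and 54.8 in KI/+ and 54.9, 63.7 and 63.5 in KI/KI (edgeR FDR = 0.737). One WT library and a pair of KI/+ libraries were high, and no KI/KI library was.

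**Figure D4:**
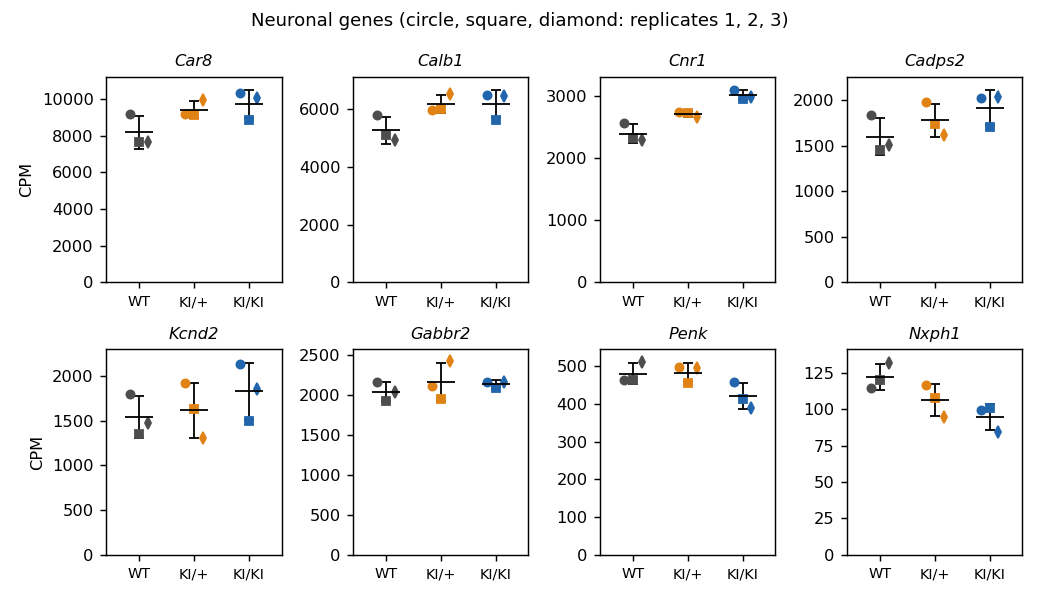
CPM in each library for 8 neuronal genes in WT, KI/+ and KI/KI mice. Circles, squares and diamonds are replicates 1, 2 and 3, lines are means, bars are SDs (n = 3), and every axis starts at 0. Cnr1 separates the genotypes, Car8 and Calb1 are slightly higher in KI/KI mice with overlapping libraries, and Penk and Nxph1 are lower. The name of the Calb1 row failed a check.

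The gene lists for the pathways of the study held 856 genes, of which 391 were tested and 29 passed both checks. Of these 29, 3 were down-regulated DEGs (Basp1, Tac1 and Tox, all of them the study's own genes) and none was up-regulated, beside 3.68% and 0% of the 380 genes and 1.15% and 0.175% of all tested genes. Of the 29, 15 were lower in KI/KI mice, and the median log2 fold change was -0.06. Another 14 list members were called DEGs under names that failed a check, among them Slc6a11, Cant1, Klhl11, Serpine2, Ogfod1, Rnf123, Vamp1, Nlrp1a, Pabpc4, Klhl10, Nbr1, Cd68 and Eif4h. All 14 were lower in KI/KI mice, and nothing is read from their names. Of these, Slc6a11, Cant1, Klhl11, Serpine2, Ogfod1, Rnf123, Vamp1, Pabpc4 and Klhl10 are the study's own genes from these libraries. Their direction is no independent evidence, and the lists were chosen with earlier results of these data known.

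Among the A-type channel subunits and partners, Kcnd2 was the 1 of 8 tested members whose name passed. Kcnd2 encodes Kv4.2, the close relative of Kv4.3 that is abundant in granule cells. It had 1800, 1348 and 1470 CPM in WT and 2129, 1497 and 1852 in KI/KI, with overlapping groups (log2 fold change 0.25, SE 0.13, edgeR FDR = 0.569). Of the GABA and glycine list, Gabbr2, a subunit of the GABA-B receptor, measured 2040 ± 119 CPM in WT and 2137 ± 42.9 in KI/KI (log2 fold change 0.07, SE 0.07, edgeR FDR = 0.828). Penk, the precursor of the enkephalins found in Golgi cells, had 464, 464 and 512 CPM in WT and 457, 414 and 389 in KI/KI (log2 fold change -0.19, SE 0.07, edgeR FDR = 0.379). Penk did not overlap between the groups, yet it missed the FDR limit.

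For the secretory pathway and protein folding, the 5 readable members of the Golgi, unfolded protein response and autophagy lists gave no call. B4galt1, a galactosyltransferase of the Golgi, had 52.0 ± 6.84 CPM in WT and 38.7 ± 7.65 in KI/KI (log2 fold change -0.40, SE 0.15, edgeR FDR = 0.333). Bet1, a SNARE of transport from the ER to the Golgi, had 119 ± 4.04 and 122 ± 9.80 CPM (log2 fold change 0.03, SE 0.10, edgeR FDR = 0.948). Gcc1, a golgin of the trans-Golgi, had 167 ± 5.42 and 167 ± 9.53 CPM (SE 0.08). Asns, the asparagine synthetase induced by the integrated stress response, had 457 ± 7.13 CPM in WT and 435 ± 16.7 in KI/KI (log2 fold change -0.07, SE 0.07, edgeR FDR = 0.812), and Optn, an autophagy receptor, had 16.2 ± 0.156 and 16.8 ± 0.705 (SE 0.19).

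The respiratory chain list had 4 readable members, of which 3 were lower in KI/KI mice, beside 209 of the 380 genes of the set. The remaining member, Atp5c1, was higher. Ndufb6, an accessory subunit of complex I, had 145, 160 and 141 CPM in WT, 143, 139 and 144 in KI/+ and 119, 117 and 111 in KI/KI. KI/KI libraries lay below all others, with a log2 fold change of -0.36 (SE 0.08, edgeR FDR = 0.0673) under the fold limit for a DEG. Ndufa4 and Ndufa5 had log2 fold changes of -0.11 and -0.06 (edgeR FDR = 0.645 and 0.852). Tomm5, a small subunit of the mitochondrial import pore named after its values were seen, had 112, 121 and 131 CPM in WT and 108, 88.7 and 94.5 in KI/KI (log2 fold change -0.32, SE 0.09, edgeR FDR = 0.197).

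The other readable members were single genes of their lists. Rps20, a protein of the small ribosomal subunit, had 354, 399 and 377 CPM in WT and 323, 334 and 277 in KI/KI (log2 fold change -0.27, SE 0.08, edgeR FDR = 0.205). The cochaperones Bag1 and Dnaja1 had log2 fold changes of -0.18 (edgeR FDR = 0.380) and -0.08 (edgeR FDR = 0.863). The ubiquitin ligase gene Cul2 had -0.09 (edgeR FDR = 0.730), and the ephrin receptor gene Epha7 had 0.14 (edgeR FDR = 0.667). Nr4a3, an immediate early gene, ranged from 77.0 to 273 CPM within KI/KI mice and from 119 to 135 in WT mice (edgeR FDR = 0.842). Gpr37, an orphan receptor abundant in oligodendrocytes and named after its values were seen, had 316, 426 and 409 CPM in WT and 297, 316 and 294 in KI/KI (log2 fold change -0.34, SE 0.09, edgeR FDR = 0.139).

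Rows whose names failed a check are given as values alone. The 3 DEGs of smallest p that failed the neighbour check, outside the study's genes, were the rows named Smc1b (log2 fold change -0.42, SE 0.08, edgeR FDR = 0.0211), ENSMUSG00000121029 (-0.95, SE 0.18, edgeR FDR = 0.0244) and Gm43343 (-0.68, SE 0.13, edgeR FDR = 0.0294). Of these, ENSMUSG00000121029 had no position and could not be checked. The 3 that passed the neighbour check and failed the second were Gm26989 (-0.90, SE 0.18, edgeR FDR = 0.0497), Fam205a3 (-1.55, SE 0.41, edgeR FDR = 0.139) and Tmem179b, the single one of them that was higher in KI/KI mice (0.57, SE 0.14, edgeR FDR = 0.121).

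Total counts were 2777250, 2386344 and 2294609 in the WT libraries and 4032357, 3869190 and 2606664 in the KI/KI libraries. A single row, named Filip1l and failing the name checks, took 3.68% of the counts in WT replicate 1, 3.55% in KI/+ replicate 1 and 3.07% in KI/KI replicate 1, against 0.574% to 0.986% in the other libraries. Replicate 1 of each genotype thus stood apart in the same way. The chi-square per degree of freedom of WT replicate 1 was 10.4 against WT replicate 2 and 11.1 against WT replicate 3. Between WT replicates 2 and 3 it was 1.29. WT replicate 1 was closer to replicate 1 of the other genotypes, at 1.525 for KI/+ and 2.893 for KI/KI. The chi-square covers the Filip1l row too, so it is not separate evidence. The main fit had no term for replicate.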

How the data were processed

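RNA-sequencing counts from 9 libraries of laser-microdissected cerebellar tissue (3 each of WT, KI/+ and KI/KI female mice) were analysed. The authors aligned and counted the reads with Rsubread and deposited raw counts per gene without normalization. The submitters' processing notes name GRCm38 and mm10; the annotation release and strand setting used for counting are not given in the sources used here. Symbols and positions came by identifier from GENCODE vM21, which held 52029 of the 56953 identifiers. Positions are therefore those of vM21.

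Genes were kept by edgeR's expression filter (minimum count 10), normalized by TMM and tested with the quasi-likelihood method of edgeR 4.0.16 in R 4.3.3, with all 9 libraries in 1 fit and without covariates. The 10842 tested genes held 99% of the counts. DEGs had a fold change over 1.3 and a Benjamini-Hochberg FDR under 0.2, the limits of the study; an FDR given as edgeR FDR is that of this test over all 10842 genes. The study used DESeq2, which was run here as an alternative (1.42.0), as was limma-voom (3.58.1). Values are CPM after TMM, with mean ± SD. Total counts lay between 1915339 and 4032357, and 3 libraries per genotype limit the precision. On simulated KI/KI against WT counts the edgeR test found 56 of 100 genes changed 1.5-fold and 83 of 100 changed 2-fold, with 25 unchanged genes called among 10877.

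The members, lists and rules were chosen with earlier results of these data known. Named genes were Kcnd3, DEGs that passed the neighbour check without overlap between KI/KI and WT libraries, the study's genes that passed it, called list members and the 3 list members with the most counts that passed, and the 3 DEGs of smallest p that failed. List members that passed the neighbour check and failed the second check are not named unless called, and genes outside the rule are marked in the text. Some genes that the rule names are not reported here. The neighbour check used mean counts over all 9 libraries. On simulated stretches of the genome the second check passed 1444 of 1516 genes counted in place and 0 of 1516 counted out of place. Coding genes were simulated with higher counts than others and misplaced stretches were fully shuffled, so this outcome followed from the settings. Single or partly misplaced genes were not simulated, so the rate of wrongly passed names in the data is not known. All 36 pairs of libraries differed by more than sampling noise, with a lowest chi-square per degree of freedom of 1.29.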

Additional observations from a re-analysis of the deposited data

How the results depend on the processing

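Among the genes whose names passed both checks, edgeR called 14 down-regulated DEGs. The count was 5 with DESeq2 on all 9 libraries and 4 on the 6 KI/KI and WT libraries, 22 with limma-voom and 24 with no count filter (each including the 14), 7 in the L1 libraries alone (a prefix of unknown meaning in the column names), of which 6 were among the 14, and 4 at an FDR under 0.05. Those of the 14 that DESeq2 left uncalled had no adjusted p from it. The 0 up-regulated became 2 with limma-voom, 3 with no count filter, 1 with edgeR's robust option, 2 with no fold-change limit and 1 at 75% of pairs. Leaving out each library gave 4 to 25 down-regulated and 0 to 4 up-regulated. By the neighbour check alone, 16 down-regulated and 1 up-regulated DEGs became 5 and 0 with DESeq2, 4 and 0 with it on the 6 libraries, 27 and 4 with limma-voom, 29 and 4 with no count filter, 8 and 0 in the L1 libraries and 5 and 0 at an FDR under 0.05, with 2 up-regulated under the robust option, 0 after thinning, 3 with no fold-change limit and 2 at 7 neighbours (leave-one-out 4 to 31 and 0 to 6). Over all tested genes, 125 and 19 became 39 and 2, 37 and 4, 236 and 69, 219 and 42, 27 and 1, and 24 and 0 under the same settings, with 31 up-regulated under the robust option, 31 in the 6 libraries alone and 45 with no fold-change limit (leave-one-out 21 to 239 and 0 to 88). The causes of these shifts were not tested.

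The replicate block gave 219 down-regulated and 66 up-regulated DEGs over all genes, 27 and 5 by the neighbour check and 22 and 4 by both. The replicate numbers were not shown to pair the mice, since deviations of WT and KI/KI libraries of the same number correlated at 0.2, 0.156 and -0.0179 for numbers 1, 2 and 3; numbers 1 and 2 correlated best with their own number and number 3 did not.

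Kcnd3 turned from -0.45 to 0.15 (log2 fold change) without WT replicate 1, with a range of -0.80 to 0.15 when each library was left out. Uncalled genes near 0 also changed sign. With single libraries left out, Foxp2 lay between -0.58 and 0.20, Nr4a3 between -0.28 and 0.65, Dnaja1 between -0.15 and 0.018, Bet1 between -0.038 and 0.078, Col1a2 between -0.014 and 0.063 and Gcc1 between -0.030 and 0.047. Nr4a3 was -0.24 in the L1 libraries, Bet1 -0.054 and Col1a2 -0.018 after thinning, and Gcc1 -0.00094 with DESeq2, -0.0037 with RLE, -0.0051 in the 6 libraries, -0.00030 under the replicate block and -0.052 in the L1 libraries.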

Other observations

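Further genes whose names passed both checks had large but unsteady differences, and they were chosen after their values were seen. Prlr, the prolactin receptor, had 97.4, 98.5 and 107 CPM in WT, 79.1, 77.3 and 65.3 in KI/+ and 36.7, 85.7 and 2.65 in KI/KI, so the KI/KI libraries ranged from near the KI/+ level to almost none (log2 fold change -1.19, SE 0.42, edgeR FDR = 0.301). Capsl, a calcium-binding protein related to calcyphosine, had 4.12, 4.99 and 6.91 CPM in WT and 1.03, 3.57 and 0.378 in KI/KI (edgeR FDR = 0.272), with KI/KI replicate 2 highest and replicate 3 lowest, as for Prlr.

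Cdh9 and Cdh6, classical cadherins, and Plppr1, a membrane protein of neurite growth, were low in KI/+ replicate 3 as well as in KI/KI mice. Cdh9 had 13.1, 10.4 and 5.61 CPM in WT, 15.9, 14.0 and 2.63 in KI/+ and 1.79, 4.08 and 4.92 in KI/KI (edgeR FDR = 0.262). Cdh6 had 56.9, 71.5 and 64.8 CPM in WT, 61.5, 56.6 and 21.1 in KI/+ and 51.3, 43.8 and 30.3 in KI/KI (edgeR FDR = 0.379). Plppr1 had 15.7, 15.4 and 12.5 CPM in WT, 16.2, 14.8 and 0.527 in KI/+ and 9.23, 5.35 and 7.94 in KI/KI (edgeR FDR = 0.470). None of these genes passed the FDR limit, and Frrs1l, an auxiliary protein of AMPA receptors, was higher in all 3 KI/KI libraries, at 3536 to 3633 CPM against 3074 to 3342 in WT, without passing it (log2 fold change 0.17, SE 0.05, edgeR FDR = 0.240).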
